A study of Mus musculus with 2 samples.

Results

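The 10 genes described here are targets and modifiers of Notch signalling, taken by symbol from the count tables, in which all 10 were found among 24062 genes. They comprise the HES and HEY repressor genes Hes1, Hey1, Hey2 and Heyl, the feedback gene Nrarp, the fringe genes Lfng, Mfng and Rfng, and the coactivator genes Maml1 and Maml3. RNA was sequenced from 2 sorted populations of the C57BL6 mouse aorta at embryonic day 11. Both were CD31+ with intermediate KIT and are labelled as haematopoietic progenitors, and both came from embryos carrying Gata2Venus, a fluorescent reporter of Gata2. The sample labels give Gata2Venus, under genotype, only as negative or positive. The Gata2Venus-negative population (Venus-negative cells below) gave 1 library, which holds 10135400 counts over genes. The Gata2Venus-positive population (Venus-positive cells) gave the other, which holds 9715131. The number of embryos behind each library is not given in the sources used here. The label goes against some markers in Venus-negative cells, where the progenitor genes Myb, Gfi1b and Cd48 were at 0 counts and Runx1 had 21. Other genes of the same progenitor list were present there, among them Cd34 with 4736 counts, Kit with 2072 and Lmo2 with 550. The comparison asks how cells of this gate without the reporter differ from those with it, and each difference below is one of 2 libraries, with no replicate check and no p-value.

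Notch receptors are cut by proteases after a ligand on a neighbouring cell binds, and the freed intracellular part joins the DNA-binding protein RBPJ and a Mastermind-like coactivator to switch on target genes. The main targets encode HES and HEY proteins, which are basic helix-loop-helix repressors, and Nrarp, a small ankyrin-repeat protein that limits the signal in return. Fringe enzymes lengthen the O-fucose sugar on the receptor in the Golgi and so change which ligands it answers. In the mouse aorta, Notch signalling is known to be needed for arterial identity and for the emergence of blood stem cells from endothelium, and Gata2 is a known target of Notch1 and RBPJ there.

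The HES and HEY members are relatives whose transcripts can be told apart by sequence. Their proteins end close to a tetrapeptide that, in HES1, recruits Groucho/TLE corepressors. The stretch of coding sequence that ends with this tetrapeptide, or with the one in the same place in the HEY proteins, is shown because it differs in every member. It was read from GENCODE vM21 transcripts on mm10, 5′ to 3′ on the gene's own strand, with the 4 codons of the tetrapeptide in capitals. The positions are chr16:30067390-30067419 (plus strand) for Hes1, chr3:8664520-8664549 (minus) for Hey1, chr10:30833760-30833789 (minus) for Hey2 and chr4:123246568-123246597 (plus) for Heyl.
Hes1: ctcacttcggactccatgTGGAGACCGTGG
Hey1: gcaaaccttggcaagcccTATAGACCTTGG
Hey2: gggacaaacaataaacctTACCAACCCTGG
Heyl: cctgcgggagcagtgttcTACCACTCTTGG
The capitals as a whole differ between the 4 genes, which share the last codon, TGG. Over the aligned coding bases, identity was 69.9% between Hey1 and Hey2, 68.8% between Hey1 and Heyl, 68.4% between Hey2 and Heyl and 64.8% between Hes1 and Hey1. No run of 50 bases from Hes1, Hey1, Hey2 or Heyl transcripts was found in a transcript of any other gene, so a read of that length would not be shared between them.

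Promoter sequence is shown for the 4 members that differed by over 2-fold beyond counting error (below) and are in the RefSeq promoter table (GRCm38.p6), which held 6 of the 10 members. The stretch runs up to the annotated start, cut where GENCODE vM21 begins the gene, and is given 5′ to 3′ on the gene's strand. The Nrarp stretch is chr2:25180508-25180757 (plus strand), that of Rfng chr11:120784208-120784454 (minus), that of Maml1 chr11:50292337-50292586 (minus) and that of Maml3 chr3:52105077-52105256 (minus). Capitals mark matches, on either strand, to TGGGAA, the core of the RBPJ motif, or to CACGNG, a core bound by HES and HEY proteins.
Nrarp: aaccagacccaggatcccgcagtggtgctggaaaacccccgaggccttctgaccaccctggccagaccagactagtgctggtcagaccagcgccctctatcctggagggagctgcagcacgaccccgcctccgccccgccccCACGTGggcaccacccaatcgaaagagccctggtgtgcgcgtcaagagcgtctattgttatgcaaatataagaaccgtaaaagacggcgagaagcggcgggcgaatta
Rfng: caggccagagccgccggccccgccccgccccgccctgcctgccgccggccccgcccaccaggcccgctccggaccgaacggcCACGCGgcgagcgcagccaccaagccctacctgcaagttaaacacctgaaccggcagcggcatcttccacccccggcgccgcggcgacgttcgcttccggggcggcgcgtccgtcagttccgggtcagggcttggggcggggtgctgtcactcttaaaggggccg
Maml1: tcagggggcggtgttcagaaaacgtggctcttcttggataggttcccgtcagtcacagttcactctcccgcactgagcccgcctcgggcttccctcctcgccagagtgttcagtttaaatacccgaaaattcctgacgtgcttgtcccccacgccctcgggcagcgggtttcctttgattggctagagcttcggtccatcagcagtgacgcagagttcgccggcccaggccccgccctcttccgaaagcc
Maml3: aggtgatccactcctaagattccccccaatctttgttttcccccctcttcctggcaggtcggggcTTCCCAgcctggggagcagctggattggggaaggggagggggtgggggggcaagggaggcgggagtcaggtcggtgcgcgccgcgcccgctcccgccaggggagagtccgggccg
Maml3 held 1 match to TGGGAA, at position -185 from the RefSeq start, and Nrarp and Rfng held 1 match each to CACGNG, at -108 and -168. Maml1 held neither. Of the other members in the table, Lfng held 2 matches to TGGGAA and 3 to CACGNG, of which 1 of each overlap, and Hey2 held 1 to TGGGAA. Over the 250 bases before the start, 21.6% of 32851 promoters in the table held TGGGAA and 23.5% held CACGNG. A match is a description of the letters, not a site, and no match says only that these letters are not in this stretch.

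Levels are in CPM, the counts of a gene over the library total after scaling by edgeR's TMM factors. The 95% intervals cover counting error only, and since amplified reads are not independent molecules they can be too narrow. A gene passed the level filter with 10 CPM and 50 counts in whichever library held more of it. It was past the rule of size, or called, when its ratio's whole interval also lay beyond 2-fold. Of the 10 members 8 reached the level filter, and Hey2 and Lfng did not. Among the 8, Heyl and Maml3 were higher in Venus-negative cells, Nrarp, Rfng and Maml1 were lower there, and Hes1, Hey1 and Mfng were not past the rule. Over all 10381 genes that reached the filter, 15.2% were called higher and 14.9% lower in Venus-negative cells. All 5 called members reached the filter through the library where they were higher and no other, so a large ratio among them is partly built in. The share called also depended on the level. It was 57.2% of genes with a mean under 20 CPM, where Heyl, Maml1, Rfng and Maml3 lie, 31.7% from 20 to 50 CPM, where Nrarp, Hes1 and Hey1 lie, 18.8% from 50 to 100 CPM, where Mfng lies, and 10.1% above. As log2 ratios of negative over positive, the median was 0.23 for the 8 members and −0.0023 for all genes that reached the filter. The ratio of Heyl was taken as given below. In bulk RNA, fewer cells of a type and less RNA per cell cannot be told apart.

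**Figure D1:**
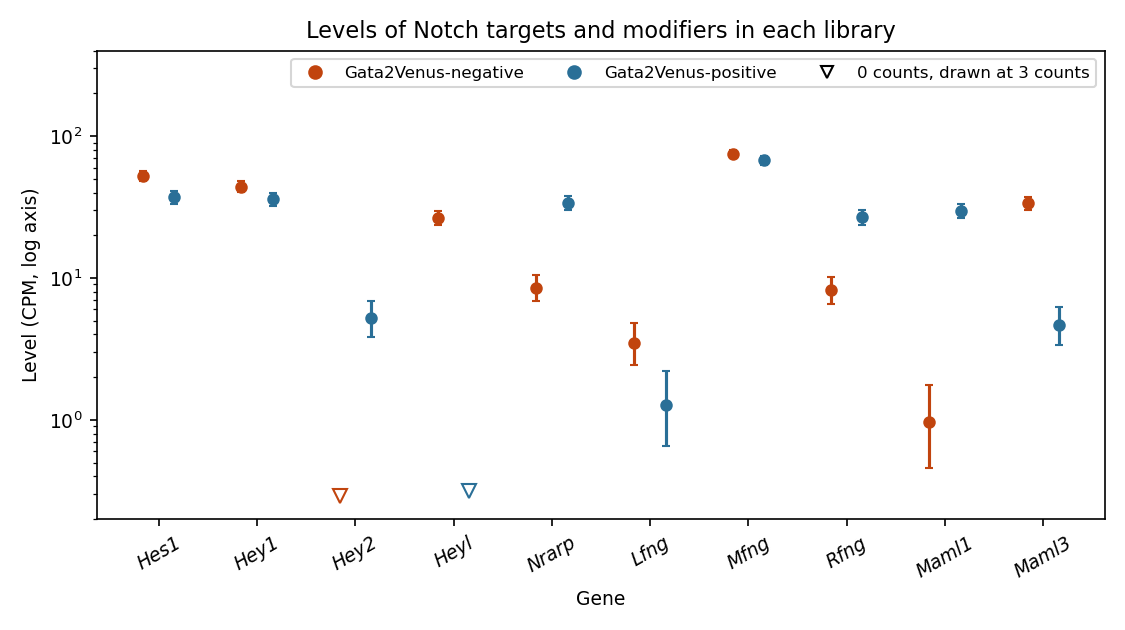
Level of each gene in CPM (log axis) in the Gata2Venus-negative (left of each pair) and Gata2Venus-positive library, 1 library each; bars are exact 95% Poisson intervals, and open triangles stand for 0 counts, drawn at 3 counts. Heyl, at 26.5 CPM, and Maml3, at 33.8 CPM, stand high in Venus-negative cells, while Nrarp, Rfng and Maml1 stand high in Venus-positive cells.

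Hes1 and Hey1, the most abundant of the repressor targets, were close between the libraries, whereas Heyl and Hey2 were each found in 1 library alone. Hes1 (chromosome 16, 30064384 to 30067796), a repressor that keeps progenitors from differentiating, had 544 counts in Venus-negative and 352 in Venus-positive cells. These are 52.3 CPM (interval 47.95 to 56.8) in Venus-negative and 37.2 CPM (interval 33.4 to 41.3) in Venus-positive cells, a log2 ratio of 0.49 (interval 0.29 to 0.69). Hes1 was thus 1.40-fold higher in Venus-negative cells by more than counting error, and well inside the 2-fold limit. Hey1 (chromosome 3, 8663359 to 8667256), a repressor of endothelial and arterial cells, had 459 counts in Venus-negative and 339 in Venus-positive cells, or 44.1 CPM in Venus-negative and 35.8 CPM in Venus-positive cells (log2 ratio 0.30, interval 0.093 to 0.51). The Hey1 difference was smaller still, and the intervals of its 2 levels did not overlap.

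Heyl (chromosome 4, 123233556 to 123249875), a HEY relative known from smooth muscle and pericytes of vessels, had 276 counts in Venus-negative cells and 0 in Venus-positive cells. Its level was 26.5 CPM (interval 23.5 to 29.8) in Venus-negative cells, and the interval of its 0 counts ended at 0.390 CPM in Venus-positive cells. With the 0 set to 3 counts, which are 0.317 CPM, Heyl was 83.6-fold higher in Venus-negative cells (log2 ratio 6.38). Of the genes past the level filter, 98.6% had a lower ratio. The lower end of its exact interval was a log2 ratio of 6.08. Such one-sided genes were not rare. Of 1708 genes with 200 to 400 counts over both libraries, 4.86% were at 0 in Venus-positive cells and 4.74% at 0 in Venus-negative cells.

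Hey2 (chromosome 10, 30832359 to 30842801), which with Hey1 is required for arterial fate, ran the other way at a low level. It had 0 counts in Venus-negative cells, with an interval that ended at 0.354 CPM, and 49 in Venus-positive cells, or 5.18 CPM (interval 3.83 to 6.85). With its count of 0 set as for Heyl, Hey2 was 18.0-fold lower in Venus-negative cells. Its exact interval ended at a log2 ratio of −3.82. Hey2 lay 1 count short of the filter and under its CPM limit, and is not called. At 40 to 60 counts in total, 32.9% of 508 genes were at 0 in Venus-negative cells and 22.2% at 0 in Venus-positive cells.

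Within a library, the share of a family's counts does not depend on how the libraries are scaled. Of the counts of the 4 HES and HEY genes, Hes1 took 42.5% (exact binomial interval 39.8 to 45.3) in Venus-negative and 47.6% (43.9 to 51.2) in Venus-positive cells, and Hey1 took 35.9% in Venus-negative and 45.8% in Venus-positive cells. Heyl made up 21.6% (19.4 to 23.9) in Venus-negative cells and 0 of 740 counts in Venus-positive cells, where the interval ended at 0.497%. Hey2 made up 0 of 1279 counts in Venus-negative cells, where the interval ended at 0.288%, and 6.62% in Venus-positive cells. Summed, the 4 genes stood at 122.8 CPM in Venus-negative and 78.2 CPM in Venus-positive cells (1.57-fold, log2 ratio 0.65, interval 0.52 to 0.78). Without Heyl the sums were 96.3 CPM in Venus-negative and 78.2 CPM in Venus-positive cells, 1.23-fold higher in Venus-negative cells.

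Nrarp (chromosome 2, 25180758 to 25183339), the feedback inhibitor whose promoter is printed above, was lower in Venus-negative cells, in the opposite direction to Hes1 and Hey1. It had 89 counts in Venus-negative and 321 in Venus-positive cells, which are 8.55 CPM (interval 6.87 to 10.5) in Venus-negative and 33.9 CPM (interval 30.3 to 37.9) in Venus-positive cells. Nrarp was 3.97-fold lower in Venus-negative cells (log2 ratio −1.99, interval −2.34 to −1.65). Of its exon bases 79.4% lie opposite an antisense gene, Gm38287, which the count table does not list. No source used here says whether counting used strand, so Nrarp reads and reads of its antisense partner cannot be told apart. With a spread between libraries of 0.4 (coefficient of variation, assumed) the Nrarp interval, −3.57 to −0.41, no longer lay beyond 2-fold.

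**Figure D2:**
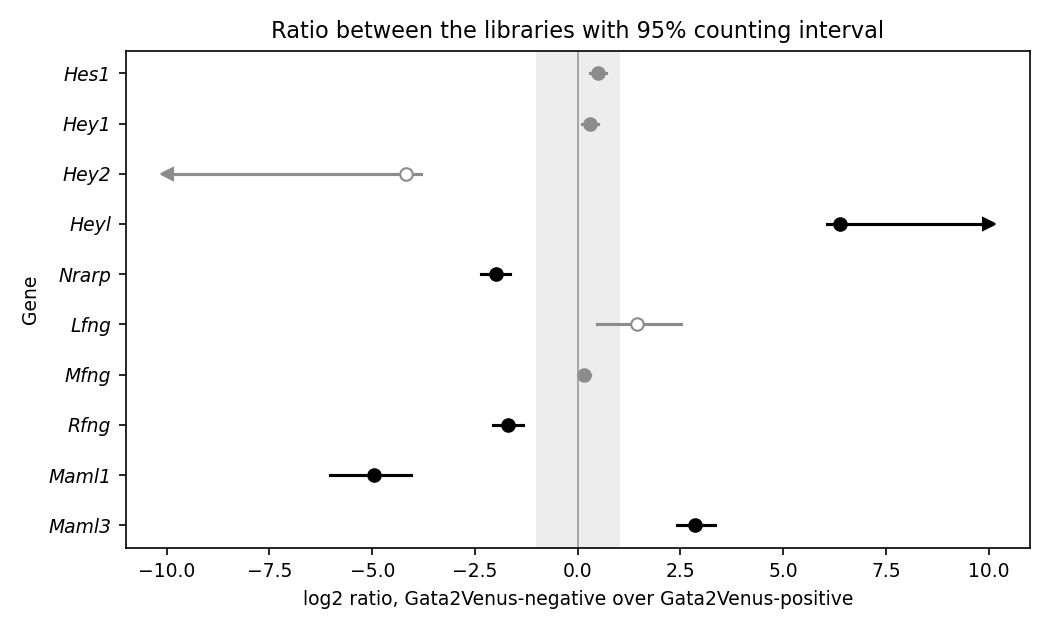
log2 ratio of the Gata2Venus-negative over the Gata2Venus-positive library for each gene, with its exact 95% counting interval; arrows mark intervals without an end, black marks genes past the rule of size, open points genes under the level filter, and the grey band ratios within 2-fold. Hes1, Hey1 and Mfng lie inside the band, and the 5 called genes lie on both sides of it.

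Among the fringe genes, Mfng was the most abundant and nearly equal between the libraries, and Rfng was lower in Venus-negative cells. Mfng (chromosome 15, 78755882 to 78773475), the manic fringe enzyme, had 780 counts in Venus-negative and 637 in Venus-positive cells, and stood at 74.9 CPM in Venus-negative and 67.4 CPM in Venus-positive cells. Its log2 ratio was 0.15 (interval 0.00074 to 0.31), a difference of 1.11-fold. Rfng (chromosome 11, 120780746 to 120784207), radical fringe, had 86 counts in Venus-negative and 253 in Venus-positive cells, at 8.26 CPM (interval 6.61 to 10.2) in Venus-negative and 26.8 CPM (interval 23.6 to 30.3) in Venus-positive cells. It was 3.24-fold lower in Venus-negative cells (log2 ratio −1.70, interval −2.07 to −1.34), and with the same assumed spread of 0.4 its interval, −3.28 to −0.11, no longer lay beyond 2-fold. Lfng (chromosome 5, 140607320 to 140615545), the lunatic fringe of the somite clock and of T-cell progenitors, had 36 counts in Venus-negative and 12 in Venus-positive cells and did not reach the filter. Its log2 ratio was 1.45 (interval 0.47 to 2.52).

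The 3 fringe genes together had 902 counts in each library, or 86.6 CPM in Venus-negative and 95.4 CPM in Venus-positive cells. Their make-up differed. Mfng held 86.5% (84.1 to 88.6) of the counts in Venus-negative and 70.6% (67.5 to 73.6) in Venus-positive cells, and Rfng held 9.53% (7.70 to 11.6) in Venus-negative and 28.1% (25.1 to 31.1) in Venus-positive cells. Lfng held 3.99% in Venus-negative and 1.33% in Venus-positive cells. The coding sequences share 72.1% of aligned bases between Lfng and Mfng, 72.0% between Lfng and Rfng and 65.2% between Mfng and Rfng, and none of the 3 shares a run of 50 bases with another gene's transcripts.

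The Mastermind-like genes showed opposite differences of large size. Maml1 (chromosome 11, 50255634 to 50292311), a coactivator that joins the Notch and RBPJ complex on DNA, had 10 counts in Venus-negative and 281 in Venus-positive cells. Its levels were 0.960 CPM (interval 0.461 to 1.77) in Venus-negative and 29.7 CPM (interval 26.3 to 33.4) in Venus-positive cells, and it was 30.9-fold lower in Venus-negative cells (log2 ratio −4.95, interval −6.03 to −4.05). Maml3 (chromosome 3, 51685907 to 52105076), its relative, had 352 counts in Venus-negative and 44 in Venus-positive cells. Its levels were 33.8 CPM (interval 30.4 to 37.5) in Venus-negative and 4.65 CPM (interval 3.38 to 6.25) in Venus-positive cells, and it was 7.27-fold higher in Venus-negative cells (log2 ratio 2.86, interval 2.41 to 3.35). Of the genes past the level filter, 4.37% had a lower ratio than Maml1, and 94.2% had a lower ratio than Maml3.

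Maml2, the third of the family and not among the 10 genes, had 285 counts in Venus-negative and 359 in Venus-positive cells with a log2 ratio of −0.47 (interval −0.70 to −0.24) that did not pass. The family's sum was 647 counts in Venus-negative and 684 in Venus-positive cells, which is 62.1 CPM in Venus-negative and 72.3 CPM in Venus-positive cells. Within that sum, Maml3 took 54.4% (50.5 to 58.3) in Venus-negative and 6.43% (4.71 to 8.54) in Venus-positive cells. Maml1 took 1.55% (0.744 to 2.82) in Venus-negative and 41.1% (37.4 to 44.9) in Venus-positive cells, and Maml2 took 44.1% in Venus-negative and 52.5% in Venus-positive cells. The sum was 1.16-fold lower in Venus-negative cells, with Maml3 the largest part of the counts there and Maml1 the smallest. Per kilobase of exon Maml2 was the largest part in Venus-negative cells, at 54.97% against 42.7% for Maml3. The coding sequences of Maml1 and Maml3 share 66.5% of aligned bases, and 1.58% of the 50-base runs of Maml1 and 0.335% of those of Maml3 occur in transcripts of other genes.

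**Figure D3:**
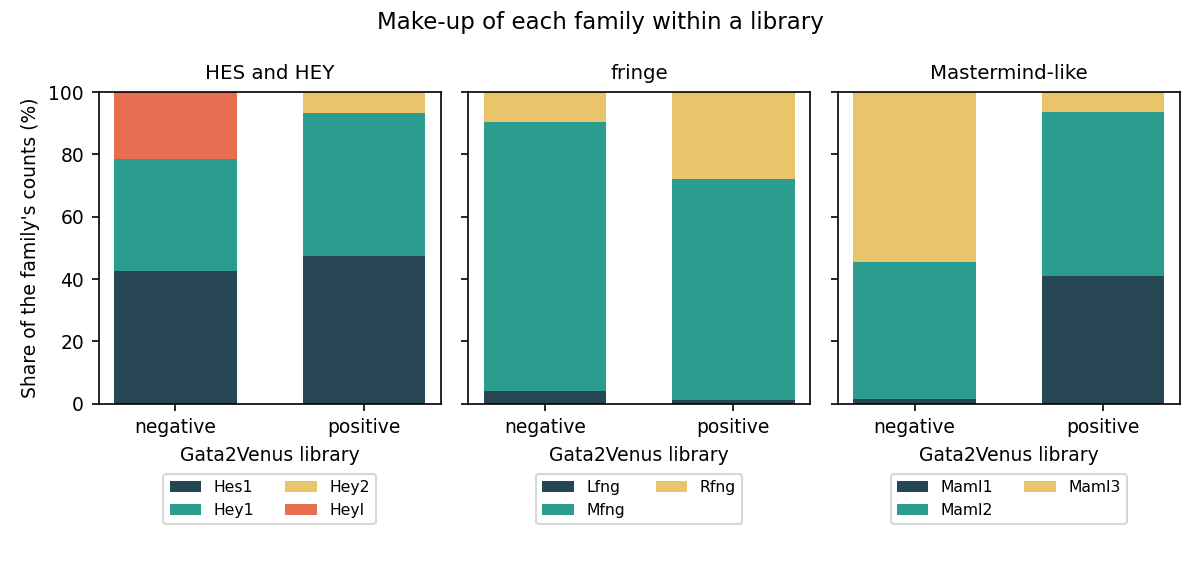
Share of each family's counts (%) taken by each gene within the Gata2Venus-negative (left bar) and Gata2Venus-positive library, 1 library each, counts not corrected for gene length. Heyl appears in the negative bar alone and Hey2 in the positive bar alone, Rfng holds 9.53% in Venus-negative against 28.1% in Venus-positive cells, and Maml3 holds 54.4% in Venus-negative against 6.43% in Venus-positive cells.

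To set the genes against each other, levels were divided by the summed length of their annotated exons. Per kilobase, Mfng and Hes1 led in both libraries. In the negative library Mfng stood at 26.4 CPM per kb and Hes1 at 25.7, with overlapping intervals, followed by Hey1 at 13.5 and Heyl at 5.18. Rfng, Nrarp and Maml3 followed at 3.32, 3.31 and 3.22 CPM per kb, and their intervals overlapped. Lfng stood at 1.38 and Maml1 at 0.174 CPM per kb, and Hey2 was at 0. In the positive library Mfng stood at 23.7 and Hes1 at 18.3 CPM per kb, with separate intervals. Nrarp at 13.1, Hey1 at 10.98 and Rfng at 10.7 CPM per kb came next, each overlapping its neighbour, and Maml1 followed at 5.37. Hey2 at 1.13, Lfng at 0.507 and Maml3 at 0.444 CPM per kb lay low, each overlapping its neighbour, and Heyl was at 0.

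**Figure D4:**
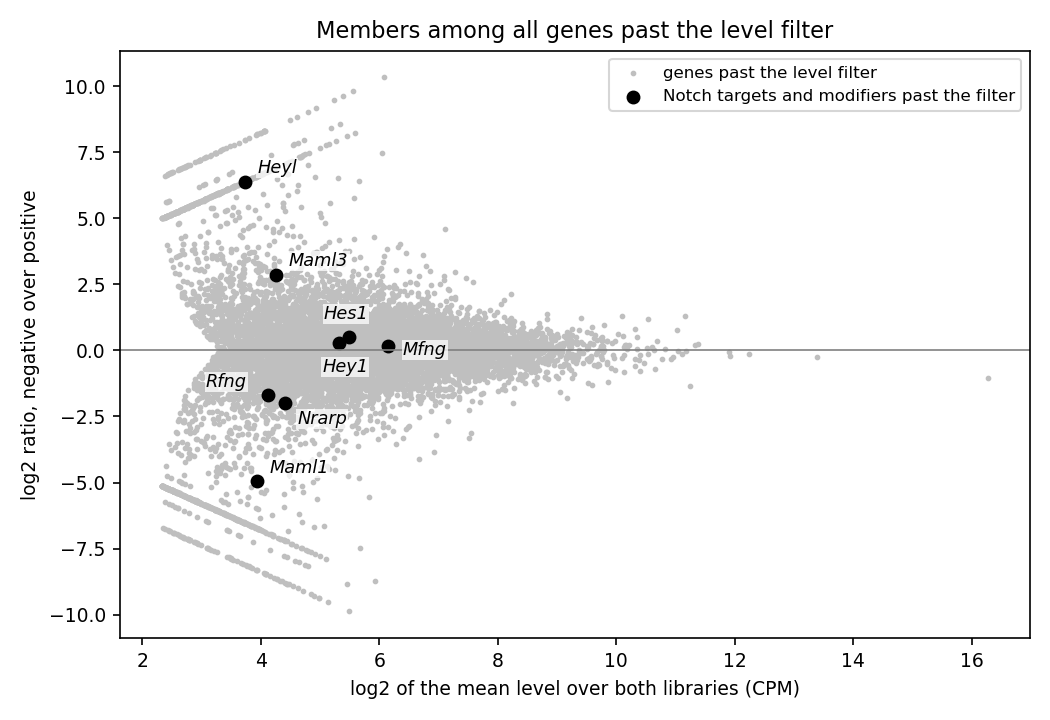
log2 ratio of negative over positive against the log2 mean level (CPM) for the 10381 genes past the level filter (grey) and the 8 members among them (black), with a count of 0 set to 3. Hes1, Hey1 and Mfng lie in the body of the cloud, and Heyl lies on the line of genes at 0 in Venus-positive cells.

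The rest of the Notch pathway was read by role in 81 further genes, of which 61 reached the filter. Of these 8 were called higher and 13 lower in Venus-negative cells, beside 15.2% higher and 14.9% lower over all genes that reached the filter. The 13 include Gata2, on whose reporter the cells were sorted. No call was made for the other 40, and the 61 had a median log2 ratio of −0.016. Among receptors and ligands, Notch3, a receptor of smooth muscle and pericytes, was at 39.9 CPM in Venus-negative and 11.1 CPM in Venus-positive cells (log2 ratio 1.84, interval 1.53 to 2.17). Notch1 was lower in Venus-negative cells, at 53.5 CPM in Venus-negative and 183 CPM in Venus-positive cells (log2 ratio −1.77), as was Notch4, an endothelial receptor, at 12.4 CPM in Venus-negative and 57.8 CPM in Venus-positive cells (log2 ratio −2.22). The ligand gene Dll4 was higher there (425 counts in Venus-negative and 158 in Venus-positive cells) and Dll1 lower (95 counts in Venus-negative and 617 in Venus-positive cells). Jag1 had 0 counts in Venus-negative and 378 in Venus-positive cells. With its count of 0 set as for Heyl, Jag1 was 139-fold lower in Venus-negative cells, and its exact interval ended at a log2 ratio of −6.81. Jag2, with 0 counts in Venus-negative and 77 in Venus-positive cells, was under the filter. Notch2 (log2 ratio −0.65) and Rbpj (log2 ratio −0.016, interval −0.24 to 0.20) were not past the rule, so the partner of Maml1 and Maml3 on DNA stood at 34.3 CPM in Venus-negative and 34.7 CPM in Venus-positive cells.

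Among the 6 receptor protease genes that reached the filter, Psen2, a catalytic subunit of gamma-secretase, was 36.4-fold lower (13 counts in Venus-negative and 430 in Venus-positive cells) and Furin 2.78-fold lower. Gxylt1, which adds xylose to receptor O-glucose, and Eogt, which adds N-acetylglucosamine, were 4.18-fold and 2.51-fold lower, and the other 4 tested glycosylation genes, Pofut1 among them, were not past the rule. Of 12 tested genes of endocytosis and turnover, the ubiquitin ligase genes Dtx3 (5.24-fold) and Mib2 (3.74-fold) were higher in Venus-negative cells. Fbxw7, whose protein marks the Notch intracellular part for destruction, had 0 counts in Venus-negative and 133 in Venus-positive cells. It was 48.8-fold lower with the 0 set to 3 counts, and its exact interval ended at a log2 ratio of −5.29. Dtx3l had 2 counts in Venus-negative and 129 in Venus-positive cells (log2 ratio −6.15, interval −9.21 to −4.27). None of the 5 tested coactivator genes, which include Ep300 and Crebbp, was past the rule. Of 14 tested corepressor genes only Fhl1 was, 2.23-fold lower in Venus-negative cells.

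Among other HES-related genes Bhlhe40 had 240 counts in Venus-negative and 0 in Venus-positive cells. It was 72.7-fold higher with the 0 set to 3 counts, and the lower end of its exact interval was a log2 ratio of 5.87. Hes5, with 102 counts in Venus-negative and 1 in Venus-positive cells (log2 ratio 6.53, interval 4.02 to 11.9), and the Notch target Dtx1, with 101 counts in Venus-negative and 1 in Venus-positive cells, lay just under 10 CPM and were not called; they were named after their values were seen. Of 8 other reported Notch targets, Snai2 (3.96-fold), Acta2 (2.62-fold) and Pdgfrb (2.60-fold), which are also genes of mesenchyme or smooth muscle, were higher in Venus-negative cells. Gata2 (log2 ratio −2.37) and Gata3 (log2 ratio −3.17) were lower. The sort was on the Gata2 reporter, so Gata2 is no finding. Myc, Ccnd1 and Efnb2 were not past the rule.

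**Figure D5:**
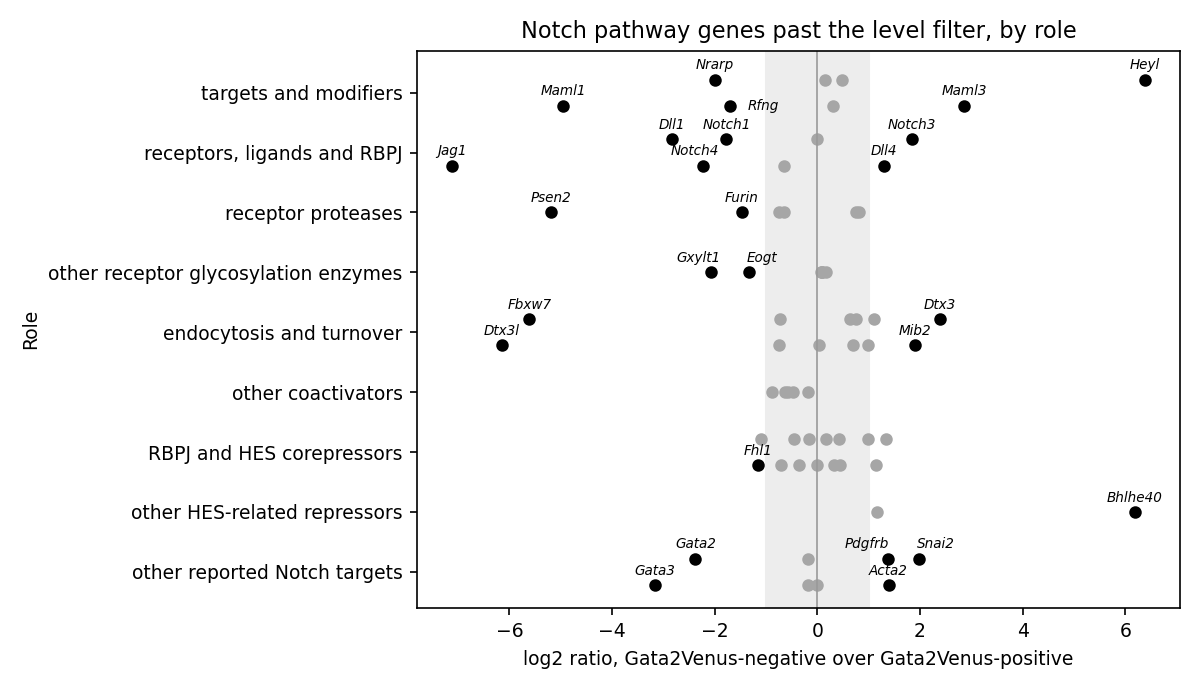
log2 ratio of negative over positive for the 8 targets and modifiers and the 61 other pathway genes past the level filter, by role; black and named genes are past the rule of size, grey ones are not, and the band marks ratios within 2-fold. Called genes lie on both sides in the rows of targets and modifiers, of receptors and ligands, of turnover genes and of other reported Notch targets.

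Markers of the cell types that the gate could hold differed between the libraries as well. Calls are out of the genes of each list that reached the level filter. Over all genes that reached it, 15.2% were called higher and 14.9% lower in Venus-negative cells. Of 14 haematopoietic progenitor genes 12 reached the filter, of which 7 were called lower and 1, Kit, higher in Venus-negative cells. The 14 summed to 852 CPM in Venus-negative and 1414 CPM in Venus-positive cells. Myb, Gfi1b, Cd48 and Spn were at 0 in Venus-negative cells. Runx1 had 21 counts in Venus-negative and 303 in Venus-positive cells, and Ptprc had 194 in Venus-negative and 498 in Venus-positive cells, both called lower in Venus-negative cells. The 14 endothelial genes summed to 3073 CPM in Venus-negative and 6028 CPM in Venus-positive cells. All 14 reached the filter, with 8 lower, none higher and none at 0. The 10 arterial genes summed to 909 CPM in Venus-negative and 1181 CPM in Venus-positive cells. Of these, 8 reached the filter, with 4 lower and 1 higher, and Bmx was at 0 in Venus-negative cells. The 16 mesenchyme and smooth muscle genes summed to 9072 CPM in Venus-negative and 5744 CPM in Venus-positive cells. Of these, 15 reached the filter, with 9 higher and none lower, and Twist1 was at 0 in Venus-positive cells. The sums of the mesenchyme and smooth muscle genes were above those of the progenitor genes in both libraries. A sum follows its most abundant genes, so sums of different lists do not compare amounts of cell types. Col3a1 alone stood at 3249 CPM in Venus-negative and 1310 CPM in Venus-positive cells. The 9 macrophage genes found in the table summed to 193 CPM in Venus-negative and 1026 CPM in Venus-positive cells. All 9 reached the filter, with 8 lower. The 10 megakaryocyte genes summed to 87.0 CPM in Venus-negative and 466 CPM in Venus-positive cells, with 7 of the 9 that reached the filter lower. The 10 erythroid genes summed to 325 CPM in Venus-negative and 260 CPM in Venus-positive cells, with 3 of the 6 that reached the filter lower. Timd4 was at 0 in Venus-negative cells, as were Gp1bb and Gp5 and, among the erythroid genes, Gata1, Klf1, Epor, Car1 and Hemgn. The most abundant erythroid genes, the embryonic globin genes Hbb-y, Hbb-bh1 and Hba-x, stood at 143, 103 and 79.2 CPM in Venus-negative and 85.9, 55.8 and 35.0 CPM in Venus-positive cells and were not past the rule. Spn was at 0 in both. The part of these cells in the ratios of Heyl, Maml3, Nrarp, Rfng and Maml1 was not tested.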

How the data were processed

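RNA from 2 sorted populations was prepared with the mirVana kit and the SMARTER protocol, per the labels' protocols, and TopHat, Cufflinks, HTSeq and build mm10 are named per the submitters' processing notes. Tool versions and the strand setting are not given in any source used here. The deposited values are whole-number counts per gene symbol, 1 table per library. The 5 rows for reads of no gene were left out: alignments that are not unique were 45.5% of the negative and 48.2% of the positive table, reads of no feature 5.93% and 8.00%, and ambiguous reads 0.474% and 0.412%.

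Counts were scaled by TMM (edgeR 4.0.16, R 4.3.3; factors 1.03 and 0.974). Each group has 1 library, so conditions could not be tested, and the rule of size stood in for it. Ratios have exact Clopper-Pearson intervals and levels exact Poisson intervals (SciPy 1.17.1). A count of 0 was set to 3 to give a ratio, and the exact interval can end closer to equal levels than that ratio. The calculation was tested on simulated data with counting error only, which cannot check the spread between libraries. Members and lists were chosen with earlier results of these data known, and 1 marker gene is not reported here. Named genes are the 10 members, per role up to 3 called genes in each direction, and Maml2, the Notch receptors, their main ligands and Rbpj. Exon lengths and positions come from GENCODE vM21, which matched 94.5% of 24062 symbols and all 91 listed. Alternatives were 3 other scalings, one of them by DESeq2 1.42.0 size factors, 3 other filters, an interval beyond 4-fold, a ratio without interval, 0.5 added counts and a coefficient of variation between libraries assumed to be 0.4.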

Additional observations from a re-analysis of the deposited data

How the results depend on the processing

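Heyl, Maml3, Nrarp, Rfng and Maml1 were called under each of the 3 other scalings, and the log2 ratios of all 10 genes kept their sign and stayed inside their counting intervals under every scaling and with 0.5 counts added. The largest shift of the median of all genes, 0.08 on the log2 scale, came from scaling by total counts. Filters of 1 CPM and 10 counts, or none, let in all 10 members and added Hey2 to the lower genes. At a filter of 50 CPM only 2 members were left to test and 0 were called in either direction, since no called member reaches that level. With an interval beyond 4-fold, or with the coefficient of variation between libraries assumed to be 0.4, 1 member, Maml1, was called lower and 2, Heyl and Maml3, higher. With that coefficient the interval of Nrarp widened to a log2 ratio of −3.57 to −0.41 and that of Rfng to −3.28 to −0.11. The value of 0.4 is assumed, since no replicate gives one.

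Of the other pathway genes, 14 were called higher and 18 lower under the filter of 1 CPM, of 76 tested, and as many under none, of 78 tested. At 50 CPM 5 were higher and 7 lower, of 35 tested. Of the 61 tested at the main filter, 2 were higher and 7 lower beyond 4-fold, and 1 and 6 with the assumed spread. Over all genes, 2297 were higher and 2484 lower of 12868 tested under the filter of 1 CPM, and 2310 and 2503 of 13853 under none. At 50 CPM 629 were higher and 545 lower of 5659 tested. Of the 10381 tested at the main filter, 744 were higher and 751 lower beyond 4-fold, and 663 and 693 with the assumed spread. No paired analysis was possible because each group has 1 library.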
